A study of Mus musculus with 10 samples.

Results

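The 10 genes described here build or mark the microvilli of the enterocyte brush border. They were taken from the count table by symbol as Vil1, Espn, Eps8, Myo1a, Ezr, Cdhr2, Cdhr5, Ush1c, Myo7b and Krt20. All 10 were present among 13932 listed genes, and all 10 passed the filter on low counts that kept 12477 genes for testing. RNA was sequenced from live CD45-, EpCAM+ cells sorted from mouse ileum, with 1 library per mouse. The dIEC group (n = 5) was H2-Ab1 fl/fl with Villin:Cre+, and the WT group (n = 5) was H2-Ab1 fl/fl with Villin:Cre-. H2-Ab1 encodes the beta chain of the MHC class II molecule I-A. Both groups therefore carried the floxed allele, and each held 3 males and 2 females. The age of the mice was not given in the sources used here. Every dIEC mouse and no WT mouse carried the Cre, so the deletion and the Cre transgene cannot be told apart. The series text gives Cre- for both groups, and the genotypes used here follow the sample labels.

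A microvillus is a finger of apical membrane around a bundle of parallel actin filaments. Villin, espin and EPS8 bind and bundle these filaments, while myosin-1A and ezrin tie the bundle to the membrane around it. Neighbouring tips are joined by the protocadherins CDHR2 and CDHR5, which are held inside the cell by harmonin, the product of Ush1c, and by myosin-7B. Krt20 encodes an intermediate filament keratin of differentiated villus enterocytes and is a marker of their maturity, not a part of the actin bundle. The promoter of the villin gene is the one that drives Cre in these mice.

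H2-Ab1 was at 1.99, 3.11, 0.766, 1.84 and 3.002 CPM (counts scaled to a common library size) in dIEC libraries 1, 3, 5, 7 and 9. It was at 368, 246, 235, 62.8 and 129.7 CPM in WT libraries 2, 4, 6, 8 and 10. The groups did not overlap, and the dIEC mean was 1.03% of the WT mean (exact two-sided permutation test, p = 0.00794, the smallest that 5 against 5 can give). Epcam stood at 1646 to 2559 CPM in dIEC and 1474 to 2047 CPM in WT libraries, and Cdh1 at 752 to 1070 CPM (dIEC) and 750 to 904 CPM (WT). Ptprc, which encodes CD45, stayed at 0.0852 to 0.797 CPM in dIEC and 0.361 to 0.782 CPM in WT libraries. Of 15 leukocyte markers 4 were in the table, and they summed to 12.3 to 20.3 CPM in dIEC and 9.02 to 17.997 CPM in WT. Total counts per library lay between 9174101 and 13484363. The libraries differed widely in cell cycle transcripts, and a proliferation score was taken as the mean log2 CPM of 26 such genes, none of them a microvillus gene. It was 4.67, 4.83, 4.39, 2.90 and 5.61 in dIEC libraries 1, 3, 5, 7 and 9, and 5.11, 3.62, 5.10, 4.55 and 3.24 in WT libraries 2, 4, 6, 8 and 10. The lowest and the highest score both belonged to dIEC females, libraries 7 and 9, and these 2 libraries also bound the range of every microvillus gene below.

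Stretches upstream of the transcription start are shown for Vil1, because this gene lends its promoter to the Cre, and for Cdhr2 and Ush1c, a pair whose ratio within a library was among the least steady. The windows hold the 250 bases before the RefSeq start on GRCm38.p6. Of the 10 genes, 8 had at least 1 window, and Espn had 3. Capitals mark matches, on either strand, to CAAAG, a core of the HNF4A site, to GTTAAT, an arm of the HNF1 site, or to TATAAA, the TATA box. The windows are chr1:74409134-74409383 (+) for Vil1, chr13:54701213-54701462 (+) for Cdhr2 and chr7:46238491-46238740 (-) for Ush1c.
Vil1: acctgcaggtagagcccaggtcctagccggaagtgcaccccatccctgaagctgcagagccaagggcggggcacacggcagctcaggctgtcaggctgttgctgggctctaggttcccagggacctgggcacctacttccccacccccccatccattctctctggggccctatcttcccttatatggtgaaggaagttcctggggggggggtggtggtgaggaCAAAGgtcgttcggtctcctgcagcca
Cdhr2: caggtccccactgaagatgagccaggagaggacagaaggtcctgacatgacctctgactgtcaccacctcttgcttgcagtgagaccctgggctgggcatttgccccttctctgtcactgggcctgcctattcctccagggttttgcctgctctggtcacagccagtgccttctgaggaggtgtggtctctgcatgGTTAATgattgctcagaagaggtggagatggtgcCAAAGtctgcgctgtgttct
Ush1c: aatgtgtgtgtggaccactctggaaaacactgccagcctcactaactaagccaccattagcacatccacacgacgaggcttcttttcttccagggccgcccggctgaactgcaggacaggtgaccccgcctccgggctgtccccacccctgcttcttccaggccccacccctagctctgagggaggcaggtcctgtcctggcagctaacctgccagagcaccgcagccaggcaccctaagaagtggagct
CAAAG stood 27 bases before the start of Vil1 and 20 bases before that of Cdhr2, and Cdhr2 also had GTTAAT 54 bases before its start. The Ush1c window held none of these letters. The 8 genes had 10 windows, and CAAAG was found in 3 of them, at Vil1, Cdhr2 and Espn, against 48.6% of all 32851 windows of this length. GTTAAT was found at Cdhr2 alone (1 of the 10 windows, against 6.43% of all windows), and TATAAA at Krt20 alone (1 of 10, against 12.4%). These matches are letters in a window, and binding was not measured.

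Most of the 10 genes were among those with the highest counts in these cells, before any correction for length. By mean CPM, Vil1 ranked 14, Cdhr2 17 and Myo1a 25 among 13932 genes, followed by Krt20 at 51, Cdhr5 at 56, Myo7b at 75 and Ezr at 87. Eps8 ranked 323, Ush1c 456 and Espn 1579. Together the 10 genes took 1.85 ± 0.389% of all counts in dIEC and 1.67 ± 0.240% in WT (SD, n = 5 each). The share was 1.86, 1.84, 1.84, 2.41 and 1.31% in dIEC libraries 1, 3, 5, 7 and 9, and 1.48, 1.95, 1.61, 1.42 and 1.89% in WT libraries 2, 4, 6, 8 and 10. The dIEC range enclosed the WT range.

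Per kilobase of exon, the order of levels separated the abundant core from a minor set. Vil1 stood at 1338 ± 447 CPM per kb in dIEC and 1228 ± 264 CPM per kb in WT. Cdhr2 (986 ± 431 in dIEC, 816 ± 320 in WT) and Krt20 (976 ± 387 in dIEC, 909 ± 251 in WT) came next and lay within each other's spread. Myo1a followed at 758 ± 202 CPM per kb in dIEC and 713 ± 92.2 in WT, and Cdhr5 at 672 ± 260 in dIEC and 565 ± 184 in WT. These 2 also overlapped with Cdhr2 and Krt20. Ezr was at 402 ± 126 CPM per kb in dIEC and 362 ± 85.6 in WT, and Myo7b at 228 ± 88.0 in dIEC and 195 ± 58.5 in WT. The cytoplasmic scaffold Ush1c was lower, at 85.2 ± 16.4 CPM per kb in dIEC and 85.8 ± 13.9 in WT. Eps8 averaged 35.4 ± 9.43 CPM per kb in dIEC and 32.4 ± 6.46 in WT, and Espn 17.5 ± 7.77 in dIEC and 14.3 ± 5.43 in WT. The place of Eps8 depended on which exons were counted: over its longest coding transcript alone it averaged 95.8 CPM per kb in dIEC and 87.7 in WT, close to Ush1c, which then stood at 106.8 in dIEC and 107.5 in WT. Espn remained lowest on that length as well, at 31.3 CPM per kb in dIEC and 25.7 in WT.

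**Figure D1:**
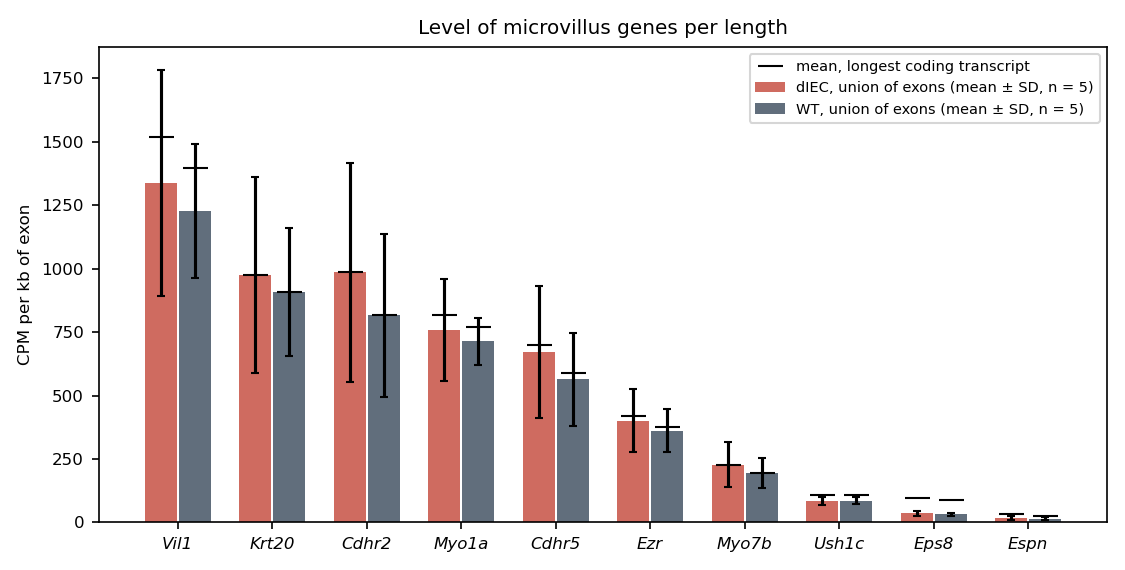
Level of each microvillus gene in CPM per kilobase of exon, with bars for the mean and SD of 5 dIEC (left) and 5 WT (right) libraries over the union of exons, and short lines for the mean over the longest coding transcript. Vil1 leads at 1338 (dIEC) and 1228 (WT), Espn is lowest on both lengths, and the Eps8 mean in dIEC is 35.4 over all exons and 95.8 over the transcript.

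Among the actin binders, Vil1 (chr1:74409376-74435559, + strand) had 4381, 4479, 4577, 7336 and 2977 CPM in dIEC libraries 1, 3, 5, 7 and 9. In WT libraries 2, 4, 6, 8 and 10 it had 3418, 5133, 3744, 3935 and 5576 CPM. The 3 dIEC males lay within a narrow band, both dIEC females lay outside the whole WT range, 1 on each side, and the groups overlapped. Espn (chr4:152120331-152152371, - strand), the scarcest of the bundlers, had 149.9, 131, 139, 241 and 60.8 CPM in the dIEC libraries, against 81.9, 174, 104, 74.99 and 158 CPM in the WT libraries, in the same library order. Its highest library exceeded its lowest 3.96-fold, the widest range of the 10 genes. Eps8 (chr6:137477245-137654876, - strand), which caps and bundles filaments at the microvillus tip, had 454, 415, 423, 610.1 and 284 CPM (dIEC) and 317, 517, 382, 346 and 440.25 CPM (WT).

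Of the genes that tie the actin core to the membrane, Myo1a (chr10:127705170-127720940, + strand) had 2684, 2701, 2755, 4009 and 1930.3 CPM in dIEC libraries 1, 3, 5, 7 and 9. The WT libraries 2, 4, 6, 8 and 10 had 2272, 3018, 2365, 2609 and 2979 CPM. The dIEC males again lay close together, in the middle of the WT values. Ezr (chr17:6738041-6782784, - strand) had 1317.5, 1195, 1347, 1949.5 and 797 CPM in dIEC libraries and 925, 1640, 1085, 1029 and 1279 CPM in WT libraries. The exons of Vil1 and Ezr overlap, on the opposite strand, those of Usp37 and Sytl3. Usp37 reached only 30.7 to 42.2 CPM and Sytl3 7.89 to 21.1 CPM over all libraries, against 2977 CPM or more for Vil1 and 797 CPM or more for Ezr.

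For the tip link protocadherins, Cdhr2 (chr13:54701461-54736662, + strand) had 3845, 3530.5, 4386, 6762.5 and 1838.5 CPM in dIEC libraries 1, 3, 5, 7 and 9. In WT libraries 2, 4, 6, 8 and 10 it had 2199, 5022, 2912, 2198 and 4519 CPM. Cdhr5 (chr7:141269083-141276786, - strand) followed the same order, with 1768, 1725, 1847, 2930.2 and 931 CPM in dIEC and 1215, 2167, 1419, 972 and 1961 CPM in WT. WT 8 stood apart here: its score of 4.55 was intermediate, yet its Cdhr5 level was the lowest of the WT group and its Cdhr2 level was as low as that of WT 2, while its Vil1 and Myo1a levels were the WT median. The motor Myo7b (chr18:31959234-32036961, - strand) had 1429, 1445, 1491, 2407 and 774 CPM in dIEC and 1051, 1787, 1174, 855 and 1596.5 CPM in WT. Its partner in the same complex, Ush1c (chr7:46195350-46238503, - strand), had 303, 322, 332, 427 and 255 CPM in dIEC and 274, 362, 294, 316 and 406 CPM in WT. The lowest WT library for Myo7b was WT 8, as for the protocadherins, whereas for Ush1c it was WT 2. Krt20 (chr11:99428403-99438150, - strand) had 1544, 1843, 2000.0, 3025 and 994 CPM in dIEC libraries, against 1153, 2362, 1660.0, 1477 and 2103 CPM in WT libraries. For all 10 genes the highest library was dIEC 7 and the lowest dIEC 9, and the groups overlapped for all 10. Over all tested genes, 0.321% had groups that did not overlap.

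**Figure D2:**
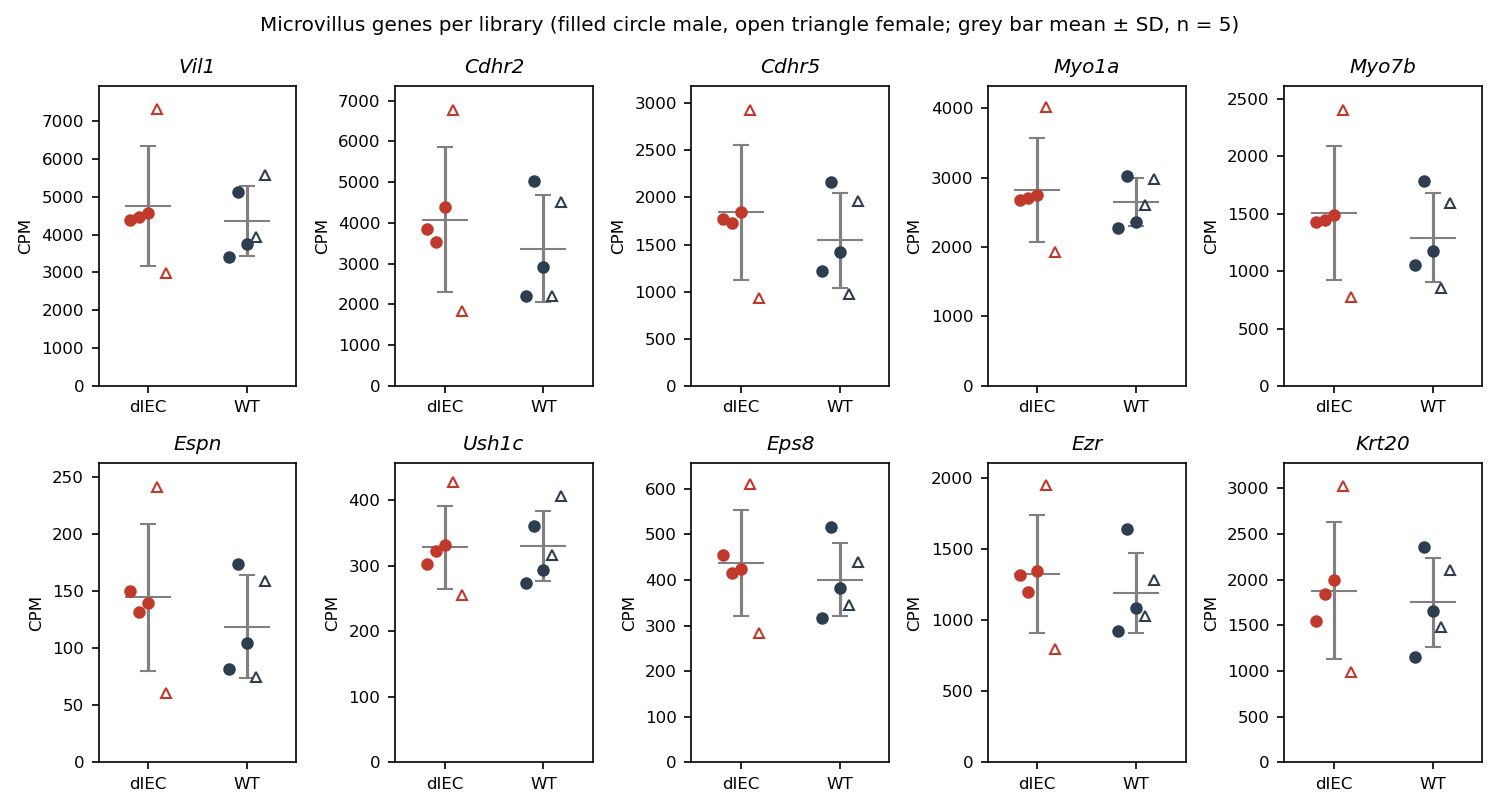
CPM of each microvillus gene in every library, dIEC left and WT right, with filled circles for males, open triangles for females and grey bars for mean ± SD (n = 5). In each panel the highest and the lowest point are the 2 dIEC females, and the WT points lie between them.

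Loss of H2-Ab1 from the epithelium was compared with its presence to ask whether the microvillus genes differ by genotype. None of the 10 passed an adjusted p of 0.05 in edgeR's quasi-likelihood test (0.016% of all tested genes did). None had an unadjusted p under 0.05 (2.85% of all tested genes), and DESeq2 also called 0 of the 10 (0.0321%). Vil1 averaged 4750.1 ± 1587 CPM in dIEC and 4361 ± 939 CPM in WT, a log2 fold change of 0.12 (SE 0.26). The largest differences were those of Espn (0.28, SE 0.36), Cdhr2 (0.27, SE 0.37), Cdhr5 (0.25, SE 0.32) and Myo7b (0.22, SE 0.31). Espn averaged 144 ± 64.3 CPM in dIEC and 119 ± 44.9 CPM in WT, and Cdhr2 4072 ± 1780 CPM in dIEC and 3370.1 ± 1323 CPM in WT. Smaller values were found for Ezr (0.15, SE 0.26), Eps8 (0.13, SE 0.22), Krt20 (0.10, SE 0.31) and Myo1a (0.09, SE 0.22). Ush1c was at -0.0068 (SE 0.17), with 328 ± 62.9 CPM in dIEC and 330.3 ± 53.5 CPM in WT. The edgeR adjusted p was 0.99989 for each gene. Exact two-sided permutation tests of 5 against 5 libraries gave p between 0.548 for Cdhr5 and 0.921 for Ush1c. All these differences were smaller than their standard errors, so a change of such a size was not detectable over the spread between mice.

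Of the 10 log2 fold changes 9 were above 0, with a median of 0.14, against 52.6% of all tested genes and a median of 0.013. Without dIEC 7 the median was -0.10 and 9 of the 10 changed sign, while without dIEC 9 it was 0.29. It was 0.11 among males alone (3 against 3), 0.22 among females alone (2 against 2) and 0.17 with sex and the proliferation score as covariates. With the proliferation score as a further term, the standard errors shrank to between 0.080 for Ush1c and 0.12 for Krt20, and 0 of the 10 genes were called (0.0401% of all tested genes were). In that fit 4 of them had an unadjusted p under 0.05, as did 17.4% of all tested genes: Cdhr2 at 0.34 (SE 0.10, edgeR adjusted p = 0.138), Espn at 0.34 (SE 0.097, adjusted p = 0.124), Cdhr5 at 0.31 (SE 0.11, adjusted p = 0.173) and Myo7b at 0.27 (SE 0.10, adjusted p = 0.200). Under every other alternative the adjusted p of these 4 was larger, up to 1.0.

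Wider sets of brush border genes gave no called gene between genotypes either. Of 30 other microvillus genes 27 were in the table, and Rdx, Msn and Fscn1 were absent from it. Of these 27, 20 were higher and 7 lower in dIEC (median log2 fold change 0.078), none past the threshold. Tmigd1, which encodes an apical adhesion molecule of the immunoglobulin family, had the smallest p, with 231 ± 123 CPM in dIEC and 131 ± 36.6 CPM in WT (0.77, SE 0.30, unadjusted p = 0.0281, edgeR adjusted p = 0.99989). The next smallest were Calml4, a light chain of myosin-7B, at -0.23 (SE 0.13), the membrane motor Myo1e at 0.32 (SE 0.23) and Baiap2l1, which shapes membrane protrusions, at 0.20 (SE 0.15). For the direct partners of the 10 genes, the values were 0.07 (SE 0.24) for the bundler Pls1, 0.08 (SE 0.18) for the scaffold Anks4b, 0.19 (SE 0.29) for the ezrin binding scaffold Slc9a3r1 and 0.05 (SE 0.20) for the apical transport motor Myo5b. Among 22 genes of the terminal web and cortical cytoskeleton, 11 were higher and 11 lower in dIEC, with a median of -0.0082. The smallest p values there belonged to the myosin light chain Myl6 (-0.20, SE 0.12), the myosin heavy chain Myh10 (0.65, SE 0.45), the actin capping subunit Capza1 (-0.15, SE 0.12) and the junction scaffold Tjp1 (0.15, SE 0.13). Myh10 was scarce, with a mean of 1.42 CPM in dIEC and 0.973 CPM in WT. Actb was at -0.09 (SE 0.20). Of 13 apical trafficking genes, 5 were higher and 8 lower, with a median of -0.011. They were led by the small GTPases Cdc42 (-0.24, SE 0.16) and Rab11a (-0.16, SE 0.13), the adaptor subunit Ap1m2 (-0.13, SE 0.12) and the syntaxin Stx3 (0.16, SE 0.20).

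**Figure D3:**
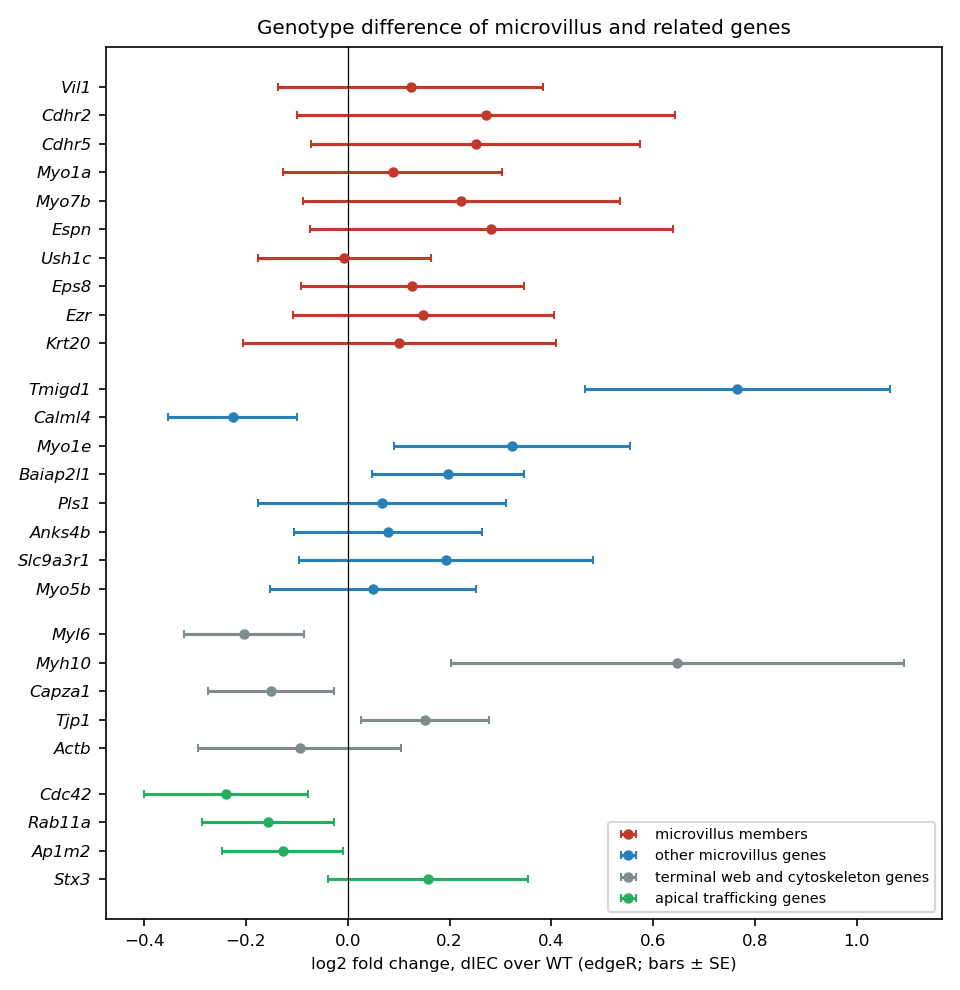
Log2 fold change of dIEC over WT (points) with standard error (bars) for the 10 microvillus genes and for related genes in 3 further lists, from edgeR's fit on all 10 libraries. The bars of all 10 microvillus genes cross 0, and Tmigd1 lies farthest from it among the other microvillus genes relative to its error.

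No difference between sexes was detected for the 10 genes in the same fit. None was called between females and males (0.0401% of all tested genes were), none had an unadjusted p under 0.05 (4.44%), and DESeq2 called 0 (0.104%). Vil1 averaged 4956 ± 1916 CPM in females (n = 4) and 4289 ± 616 CPM in males (n = 6), a log2 difference of 0.21 (SE 0.26). Cdhr2 averaged 3829.5 ± 2288 CPM in females and 3649 ± 1013 CPM in males (0.06, SE 0.38), and Ush1c 351 ± 80.1 CPM in females and 314 ± 31.0 CPM in males (0.16, SE 0.17). The spread was larger among females for all 10 genes, with dIEC 7 and dIEC 9 at the ends. Nor was a dependence of the genotype difference on sex detected. Of the interaction terms, 0 of 10 were called (0.00801% of all tested genes were), 0 had an unadjusted p under 0.05 (2.1%), and DESeq2 called 0 (0.144%). These terms rested on 2 females per genotype and ran from -0.13 (SE 0.37) for Ush1c to 0.25 (SE 0.67) for Myo7b, so a sizeable dependence was not detectable.

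With the proliferation score held fixed, an alternative added after the data were seen, 4 genes were lower in females: Espn (-0.52, SE 0.11, edgeR adjusted p = 0.0255), Cdhr2 (-0.46, SE 0.11, adjusted p = 0.0396), Cdhr5 (-0.46, SE 0.12, adjusted p = 0.0429) and Myo7b (-0.43, SE 0.11, adjusted p = 0.0453). In that fit 3.33% of all tested genes were called lower in females. In every sex comparison here, males were libraries 1 to 6 and females libraries 7 to 10, so sex and library number cannot be told apart. Over the other alternatives the adjusted p of these 4 genes reached 0.99998. The sign of these 4 values held with each library left out in turn, but the calls did not. The values ran from -0.57 to -0.48 for Espn and from -0.51 to -0.42 for Cdhr2. They ran from -0.52 to -0.37 for Cdhr5 and from -0.48 to -0.37 for Myo7b. The edgeR adjusted p ran from 0.0226 to 0.106 for Espn, 0.0447 to 0.140 for Cdhr2, 0.0403 to 0.134 for Cdhr5 and 0.0401 to 0.139 for Myo7b. None of the 10 genes was called without WT 8 (0.869% of tested genes were, in either direction), where 7 had an unadjusted p under 0.05 (16.7%). None was called without WT 4 or without dIEC 9 either, where 0.118% and 2.41% of tested genes were called lower in females. In the fit without the score, markers of other epithelial cell types also leaned one way between the sexes, with 0 of them called. Lower in females than in males were 9 of 9 Paneth cell markers (median log2 difference -1.08), 10 of 11 goblet cell markers (-0.88), 12 of 12 enteroendocrine markers (-0.36) and 13 of 14 crypt stem markers (-0.40). So were 25 of the 26 genes that make up the proliferation score (-0.23). The median over all tested genes was 0.040. All 12 tested tuft cell markers were higher in females (0.54), as were 19 of 24 mature enterocyte markers (0.13). The part of these cell types in the result was not tested.

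All 10 microvillus genes fell as the proliferation score of a library rose. Per unit of score, with genotype and sex in the model, Espn changed by -0.70 (SE 0.063) on the log2 scale, and Cdhr2 by -0.69 (SE 0.067). Cdhr5 (-0.59, SE 0.067), Myo7b (-0.57, SE 0.065) and Krt20 (-0.54, SE 0.077) followed. Ezr (-0.44, SE 0.062), Vil1 (-0.43, SE 0.062) and Eps8 (-0.37, SE 0.058) were less steep, and Myo1a (-0.32, SE 0.062) and Ush1c (-0.27, SE 0.051) the least. The edgeR adjusted p ran from 2.45e-06 for Espn to 0.000799 for Myo1a. All 10 were called, and 28.2% of all tested genes were called with a negative slope. The median slope was -0.49 for the 10 genes and -0.0085 for all tested genes. Across the observed score range of 2.71, the fitted level at the lowest score exceeded that at the highest 3.74-fold for Espn, 3.68-fold for Cdhr2, 2.24-fold for Vil1 and 1.65-fold for Ush1c. A steeper negative slope was found in 2.27% of tested genes for Espn, 2.42% for Cdhr2, 10.5% for Vil1 and 22.9% for Ush1c. The score comes from the same libraries as the slopes, and fewer cells of a type and less RNA per cell cannot be told apart in bulk RNA.

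Scaling bore on the size of these slopes. With library size in place of TMM factors, the median slope of all tested genes was 0.198, and 81% of called genes had a positive slope, against 48.5% with TMM. On that scale 8 of the 10 were called negative (10.8% of all tested genes were), while Myo1a was at -0.11 (edgeR adjusted p = 0.125) and Ush1c at -0.059 (adjusted p = 0.343). The ends of the score also mattered for the shallow genes, and these settings, like library size only, were chosen after seeing the data. Without dIEC 7 and dIEC 9, Myo1a was at -0.21 (adjusted p = 0.113). Without dIEC 7 and WT 10, the 2 libraries farthest from the median score, Vil1 was at -0.34 (adjusted p = 0.0686), Myo1a at -0.26 (adjusted p = 0.132) and Ush1c at -0.22 (adjusted p = 0.125). Over all alternatives the adjusted p ranged from 4.61e-14 to 0.0686 for Vil1, from 2.07e-07 to 0.132 for Myo1a and from 5.30e-07 to 0.343 for Ush1c. Every slope of the 10 genes stayed negative in each of these fits. With the crypt stem list in place of the proliferation list, all 10 were called negative again, as were 27.2% of all tested genes.

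**Figure D4:**
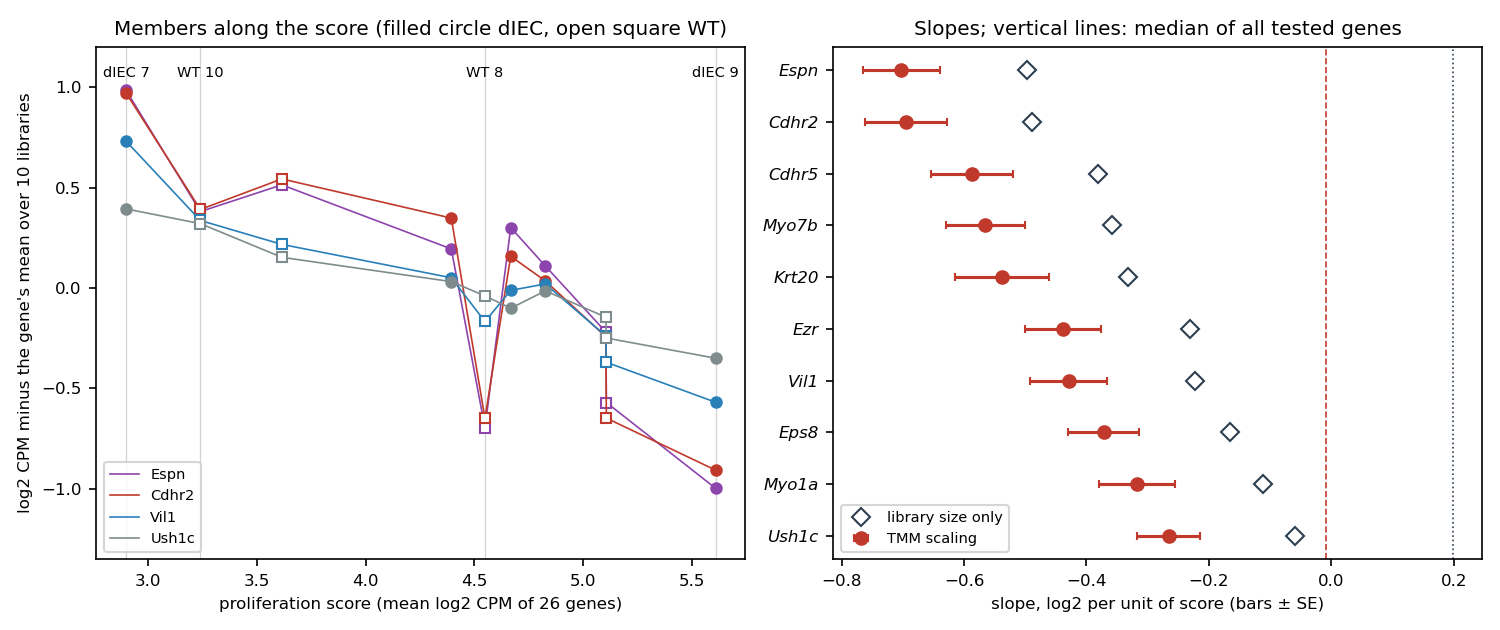
Left, log2 CPM of Espn, Cdhr2, Vil1 and Ush1c around each gene's mean against the proliferation score of the library, with filled circles for dIEC and open squares for WT. Right, slope per unit of score with SE under TMM scaling (circles) and slope under library size only (diamonds), beside the median of all tested genes on each scale (vertical lines at -0.0085 and 0.198). All 10 slopes lie left of both lines, and in WT 8 Espn and Cdhr2 lie well below Vil1 and Ush1c.

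Markers of several cell types also followed the score. Of 24 mature enterocyte markers 20 were called with a negative slope and 1 with a positive one, and their summed level ran from 38409 CPM in dIEC 9 to 112900.0 CPM in dIEC 7, and from 47675 to 93849 CPM over the WT libraries. With a positive slope, 12 of 14 crypt stem markers were called (median slope 0.98), 7 of 9 Paneth cell markers (0.73) and 7 of 12 tuft cell markers (0.49). None of these 3 lists had a negative call. Of 11 goblet cell markers 2 were called positive and 1 negative, and of 12 enteroendocrine markers 2 positive and 0 negative. Over all tested genes, 28.2% were called negative and 26.5% positive. The part of these cell types in the slopes of the microvillus genes was not tested. Of the 27 other microvillus genes, 16 were called negative and 2 positive (median slope -0.30). Among the negative ones were the tip link scaffold Anks4b (-0.30, SE 0.058), the bundler Pls1 (-0.41, SE 0.062), Slc9a3r1 (-0.52, SE 0.065) and Myo5b (-0.33, SE 0.055). Calml4, the myosin-7B light chain, was at -0.073 (SE 0.060) and was not called (edgeR adjusted p = 0.327). The positive calls were Prom1 (0.74, SE 0.060), which encodes prominin of membrane protrusions and also marks crypt cells, and the plastin Pls3 (0.97, SE 0.14). Pls3 is a relative of the enterocyte bundler Pls1. It reached only 1.4 to 7.5 CPM over all libraries, against 1296 CPM or more for Pls1. Tmigd1, which had the smallest p between genotypes, was at 0.02 (SE 0.23).

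Of 22 terminal web genes, 9 were called negative and 3 positive, with a median slope of -0.073, where 28.2% of all tested genes were called negative and 26.5% positive. The positive ones were the keratins Krt18 (0.48, SE 0.079) and Krt19 (0.65, SE 0.096) and the adducin Add3 (0.55, SE 0.064), so that these keratins ran against Krt20. Actb was at -0.20 (SE 0.069, edgeR adjusted p = 0.0251). Of 13 apical trafficking genes, 8 were called negative and 0 positive, with a median of -0.20, beside the same 28.2% and 26.5% of all tested genes. The sodium-hydrogen exchanger Slc9a3 (-0.60, SE 0.19), the endocytic recycling protein Ehd1 (-0.53, SE 0.060) and Stx3 (-0.35, SE 0.051) were among them.

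Ratios of 2 genes within a library do not depend on scaling, and they ordered the 10 genes by how closely they kept together. Cdhr5 and Myo7b, a tip protocadherin and the motor of the same complex, kept the most constant ratio, with an SD of 0.041 on the log2 scale over 10 libraries. Their CPM ratio was 1.24, 1.19, 1.24, 1.22 and 1.204 in dIEC libraries 1, 3, 5, 7 and 9, and 1.16, 1.21, 1.21, 1.14 and 1.23 in WT libraries 2, 4, 6, 8 and 10. Eps8 and Ezr came next (SD 0.071), then Cdhr2 and Espn (0.087) and Myo1a and Ush1c (0.10). At the other end stood Espn over Ush1c (SD 0.43) and Cdhr2 over Ush1c (0.41). Cdhr5 over Ush1c, also a pair within the complex of Cdhr5 and Myo7b, had an SD of 0.35. The ratio spread largely restated the slopes on the score. Cdhr5 and Myo7b had similar slopes (-0.59 and -0.57), whereas Espn (-0.70) and Cdhr2 (-0.69) were the steepest and Ush1c (-0.27) the shallowest. Cdhr2 over Ush1c was 12.7, 11.0, 13.2, 15.8 and 7.21 in dIEC libraries, against 8.04, 13.9, 9.91, 6.95 and 11.1 in WT libraries. Both genes were highest in dIEC 7 and lowest in dIEC 9, and Cdhr2 varied over the wider range, while Ush1c kept a steadier ratio to Myo1a. These SDs describe 10 libraries that share 1 sorting scheme, and no test was made of them.

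**Figure D5:**
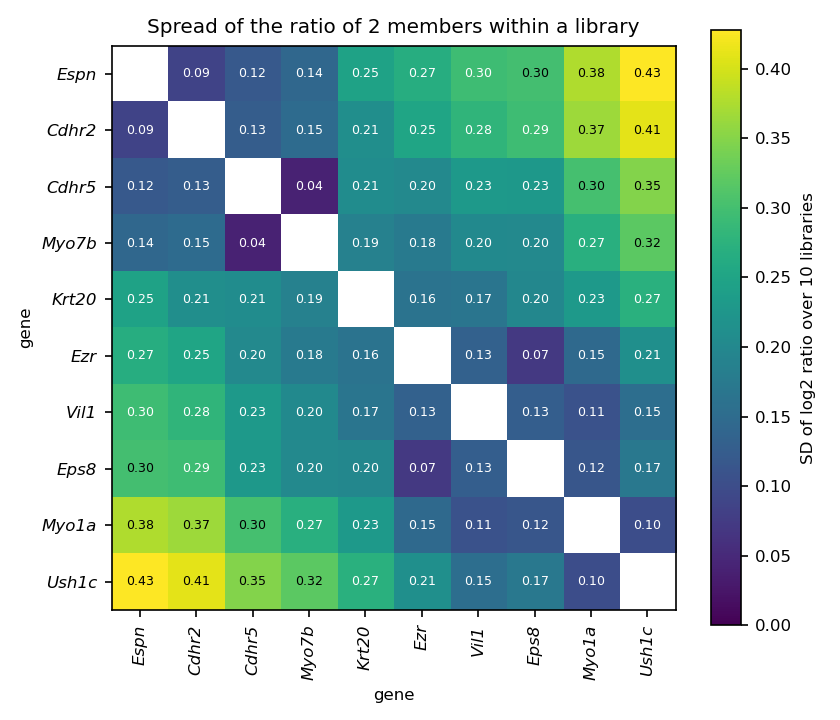
SD over 10 libraries of the log2 ratio of each pair of microvillus genes within a library, with darker cells for steadier ratios and genes ordered by slope on the proliferation score. The steadiest pair is Cdhr5 with Myo7b (0.04), and the widest are Espn and Cdhr2 with Ush1c (0.43 and 0.41).

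Across the 10 libraries, each of the 10 genes followed their common mean, with a Pearson r of 0.925 for Ush1c to 0.986 for Cdhr2 (each gene is part of the mean). Over 9336 other genes with a mean of at least 5 CPM, those most like that mean were Nucb1 (r = 0.996), Ctnna1 (0.993), Lrrc8d (0.993), Frmd8 (0.993), Numb (0.992), Stk24 (0.992), Slc9a3r1 (0.992) and Btnl6 (0.991). Nucb1 encodes a calcium binding protein of the Golgi, and Ctnna1 the alpha-catenin of adherens junctions. Those most opposed were Mak16 (-0.990), E2f6 (-0.986), Cse1l (-0.983) and Cetn3 (-0.983). Mak16 takes part in ribosome assembly, and Cetn3 encodes a centrin of the centrosome. For Vil1 alone the closest were Slc52a2 (0.986), Myo1a (0.984), Mtmr4 (0.983), Pepd (0.983) and Sirt7 (0.983). These r values are descriptions over 10 libraries, all of which share the axis of the proliferation score.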

How the data were processed

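The authors deposited raw counts per gene for 10 libraries, 1 per mouse, and these counts were used as deposited. Of the listed genes, 0 had a maximum count below 10, so a gene absent from the table was not thereby measured as 0. The kit was stranded and depleted ribosomal RNA, per the labels' protocols, and Novoalign and mm10 are named in the submitters' processing notes. Counter, annotation and strand setting were not given in the sources used here. The 10 genes and all gene lists were chosen with earlier results of these data known.

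Genes were matched by symbol and located in GENCODE on GRCm38 (mm10). edgeR 4.0.16 in R 4.3.3 (filterByExpr, TMM, robust quasi-likelihood test, Benjamini-Hochberg adjustment over 12477 tested genes, 89.6% of those listed) gave genotype and sex effects from a model with both, their interaction, and the slope on the proliferation score (prior count 2) in a model with all 3. Called means an adjusted p under 0.05. Calls of edgeR were tested on simulated data with 200 changed genes, each gene drawn independently. That setting lacks the broad axis of the proliferation score that these libraries share, so it cannot show how far calls hold along it. DESeq2 1.42.0, other size factors, no filter, left-out libraries and other covariates were alternatives. No 2 libraries of a group agreed within counting noise (chi-square per degree of freedom 15.98 to 152). Values are CPM on TMM-scaled totals. Totals of 9174101 to 13484363 counts set the counting error.

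Named beside the 10 genes were, from each related list, the 4 genes with the smallest p between genotypes and the partners Pls1, Anks4b, Calml4, Slc9a3r1, Myo5b and Actb. The genes called on the score that are named as examples were chosen after their values were seen, as were the promoter windows shown.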

Additional observations from a re-analysis of the deposited data

How the results depend on the processing

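No paired analysis was made because the labels name no pairs of mice and the genotypes share no replicate numbers. Over 26 groups of 5 libraries examined, 0 had a library past Dixon's 95% limit, where chance gives 1.3. In dIEC, libraries 7 and 9 lay at opposite ends for all 10 genes, so each widened the range used for the other. The groups also reuse the same libraries, so the 0 does not show that no library stood apart. DESeq2 called 4 genes between genotypes, 13 between sexes and 18 for the interaction. With the score as a covariate the counts were 5, 640 and 14, and 110 between sexes without WT 8 as well. Females alone gave 0 genes between genotypes, with H2-Ab1 at -5.28 (edgeR adjusted p = 0.66 from 2 against 2, against 6.82e-43 to 0.66 over all alternatives). Library size only gave 0 interaction calls. The score as a covariate for sex and interaction (with each library left out as well), library size only and the pairs of libraries left out were chosen after seeing the data. The slope called 4222 genes without dIEC 7 and 9 and 2337 without dIEC 7 and WT 10. Leaving out 1 library at a time gave 2 genotype calls, 5 sex calls and 0 to 1 interaction calls, and 18 to 724 sex calls with the score as a covariate, where Myo1a ran from -0.15 to 0.034 and Ush1c from -0.033 to 0.036. The slopes of all 10 genes kept their sign and their call in each fit that left out 1 library.

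Between genotypes, leaving out 1 library at a time gave log2 values of -0.096 to 0.50 for Cdhr2, -0.083 to 0.42 for Cdhr5, -0.078 to 0.26 for Eps8, -0.11 to 0.49 for Espn, -0.10 to 0.31 for Ezr, -0.21 to 0.28 for Krt20, -0.096 to 0.22 for Myo1a, -0.11 to 0.39 for Myo7b, -0.12 to 0.11 for Ush1c, -0.11 to 0.28 for Vil1. Between sexes, leaving out 1 library at a time gave log2 values of -0.39 to 0.32 for Cdhr2, -0.42 to 0.22 for Cdhr5, -0.25 to 0.17 for Eps8, -0.44 to 0.30 for Espn, -0.30 to 0.20 for Ezr, -0.27 to 0.34 for Krt20, -0.096 to 0.30 for Myo1a, -0.41 to 0.22 for Myo7b, 0.022 to 0.30 for Ush1c, -0.074 to 0.41 for Vil1. For the interaction, leaving out 1 library at a time gave log2 values of -1.09 to 0.79 for Cdhr2, -0.81 to 0.84 for Cdhr5, -0.56 to 0.54 for Eps8, -1.17 to 0.82 for Espn, -0.62 to 0.67 for Ezr, -0.91 to 0.70 for Krt20, -0.63 to 0.43 for Myo1a, -0.79 to 0.85 for Myo7b, -0.55 to 0.20 for Ush1c, -0.81 to 0.50 for Vil1.

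Other settings reversed small values. Between genotypes Ush1c was 0.026 with the score and 0.044 among males. Between sexes, RLE size factors and DESeq2 both gave Myo7b -0.020, Eps8 -0.017 and Ezr -0.012, and no filter gave Cdhr5 0.00085. Library size only gave Cdhr2 -0.056, Myo7b -0.12, Espn -0.095, Eps8 -0.085 and Ezr -0.083. With the score, the sex values were Vil1 -0.096, Cdhr2 -0.46, Myo1a -0.082, Myo7b -0.43, Espn -0.52, Ush1c -0.0099, Eps8 -0.24, Ezr -0.28 and Krt20 -0.28. Without WT 8 as well they were Vil1 -0.13, Cdhr2 -0.43, Myo1a -0.15, Myo7b -0.37, Espn -0.48, Ush1c -0.033, Eps8 -0.27, Ezr -0.34 and Krt20 -0.33. For the interaction, RLE size factors and DESeq2 gave Vil1 0.0094 and Myo1a 0.020, and the score gave Myo1a 0.0036. The cause of these changes was not tested.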
